A study of Homo sapiens with 94 samples.

Results

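The genes described here encode enzymes and regulators of cholesterol and fatty acid synthesis, chosen by symbol as genes known to lie under the control of the sterol regulatory element binding proteins (SREBPs). All 34 named genes were found among the 18780 gene symbols of each sense total RNA table. They comprised 7 genes of the mevalonate steps, 11 from squalene to cholesterol, 5 regulators, 2 sterol transfer or sterol binding genes and 9 genes of fatty acid and glyceride synthesis. No measured value entered the choice, but the list and the gene groups set beside it were drawn up with earlier results of these data known.

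The series compared human cells with altered cytosine modification and held 94 samples, of which 63 were total RNA, 9 PRO-cap (capped nascent RNA, marking initiation) and 9 PRO-seq (engaged polymerase, marking elongation). The cells were HEK293, a line of embryonic kidney origin, and U2OS, an osteosarcoma line, both of the T-Rex Flp-in type, whose inserted construct is turned on by doxycycline. In 1 experiment of 15 libraries, HEK293 cells carrying the TET-CD-GFP construct, with no doxycycline, formed 5 groups of 3 libraries. These were UVA with thio, UVA alone, thio alone, Aza and untreated. UVA was light of 365 nm given as 10 kJ/m² every 8 h, 4 times. Thio, or 4-thio-2'-deoxythymidine, a thymidine analogue that absorbs UVA, was given at 25 µM for 48 h. Aza, or 5-aza-2'-deoxycytidine, which traps DNA methyltransferases, was given at 880 nM for 48 h. In separate libraries, doxycycline (1 µg/mL, 48 h) was set against untreated cells in HEK293 cells with TET-CD-GFP, a GFP fusion of the part of a TET enzyme that oxidises 5-methylcytosine, and in HEK293 cells with its mutant form TETMut-CD-GFP (called TETmut-CD below). Aza and doxycycline were also each set against untreated cells in U2OS with TET-CD-GFP (Aza at 55 nM there) and in 3 further HEK293 lines. Of these, G16 and G37 were labelled MeBP_TKO, and the third, called MeBP TET_WT, was titled as TET_WT but carried the genotype label TETMut-CD-GFP. Of the doxycycline libraries, 1 of MeBP TET_WT was also labelled MeBP_TKO and 1 of G37 was not. Each group had 3 libraries.

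Cholesterol is built from acetyl-CoA through mevalonate, the isoprenoid units, squalene and lanosterol, and fatty acids are built from the same acetyl-CoA by carboxylation and chain growth. When sterols in the endoplasmic reticulum run low, SCAP carries the SREBP precursors to the Golgi, where they are cleaved, and the freed factors switch on nearly every enzyme of these routes. The INSIG proteins hold SCAP back when sterols are plentiful, and INSIG1 is itself an SREBP target, so the genes of the route usually move as a block.

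The deposited tables gave each comparison as a whole and no value per library, so the depth and the level of single libraries are not known. The median gene tested had a mean level, as the authors' mean over an experiment's libraries, between 784 and 2679 normalised counts, depending on the comparison. Log2 fold changes of total RNA are written with their standard error (SE). They were computed from the authors' deposited tables after the shrinkage toward 0 in those tables had been undone, except for TET1 in G37. That value and all nascent RNA values are given as the authors deposited them. A gene was called higher or lower where the adjusted p in the authors' deposited table, from DESeq2 over all genes, was below 0.05. Where members at an unadjusted p below 0.05 are counted, all genes were not counted at that level. Those counts have no background here and cannot be read against the shares called. UVA with thio, UVA, thio and Aza were set against the same 3 untreated libraries, and p-values measure the spread between these libraries, which may be technical. In bulk RNA, fewer cells of a type and less RNA per cell cannot be told apart. As a check of the construct, TET1 rose by log2 2.34 ± 0.03 with doxycycline in TET-CD HEK293 cells, 1.98 ± 0.03 in TETmut-CD cells and 3.52 ± 0.03 in U2OS, and by 2.52 ± 0.07 and 1.98 ± 0.07 in MeBP TET_WT and G16, and in G37 the authors' deposited table gave 2.46 ± 0.07. All 8 U2OS markers looked at (CD44, CAV1 and others) lay above the median gene in U2OS, against 2 or 3 of 8 in the HEK293 experiments looked at, where S100A6 was near 0, between 0.084 and 0.919 normalised counts. Of 8 markers looked at for HEK293, 2 lay above the median gene there and 1 in U2OS, so that list did not set the lines apart.

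The promoters of these genes are shown first because 22 of the 34 members were called lower under UVA. RefSeq promoter windows of 300 bases (250 before to 50 after a transcript start, build GRCh38.p14) were at hand for 30 of the 34 genes, in 43 windows. The windows printed belong to the genes with the largest fall under UVA among the mevalonate steps (IDI1, HMGCS1), the steps from squalene (MSMO1), the regulators (INSIG1) and the sterol transfer genes (STARD4). SREBF2 (−0.15 ± 0.05 under UVA) is printed outside that rule, and its window is the only one of the 43 with TCACNCCAC. No window of the fatty acid genes is printed. Where a gene had several windows, as IDI1 (3) and HMGCS1 (2) did, the first listed is shown. The positions are chr7:155297628-155297927 for INSIG1 (plus strand), chr10:1056655-1056954 for IDI1 (minus), chr5:43313363-43313662 for HMGCS1 (minus), chr5:111512486-111512785 for STARD4 (minus), chr4:165327419-165327718 for MSMO1 (plus) and chr22:41832855-41833154 for SREBF2 (plus). Capitals mark CCAAT, the box bound by NF-Y, and TCACNCCAC, one form of the sterol regulatory element, on either strand.
INSIG1: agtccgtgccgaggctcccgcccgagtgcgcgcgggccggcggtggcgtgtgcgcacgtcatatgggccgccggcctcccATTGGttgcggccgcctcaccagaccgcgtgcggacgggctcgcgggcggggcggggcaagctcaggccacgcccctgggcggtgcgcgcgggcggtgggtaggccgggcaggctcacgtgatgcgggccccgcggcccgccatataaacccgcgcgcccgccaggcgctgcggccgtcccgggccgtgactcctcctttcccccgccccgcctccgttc
IDI1: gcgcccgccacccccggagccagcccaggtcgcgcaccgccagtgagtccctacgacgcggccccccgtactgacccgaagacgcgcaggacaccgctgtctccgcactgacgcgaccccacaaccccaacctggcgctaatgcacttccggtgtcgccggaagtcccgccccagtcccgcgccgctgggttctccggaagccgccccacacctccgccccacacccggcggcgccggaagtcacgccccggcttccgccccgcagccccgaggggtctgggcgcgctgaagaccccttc
HMGCS1: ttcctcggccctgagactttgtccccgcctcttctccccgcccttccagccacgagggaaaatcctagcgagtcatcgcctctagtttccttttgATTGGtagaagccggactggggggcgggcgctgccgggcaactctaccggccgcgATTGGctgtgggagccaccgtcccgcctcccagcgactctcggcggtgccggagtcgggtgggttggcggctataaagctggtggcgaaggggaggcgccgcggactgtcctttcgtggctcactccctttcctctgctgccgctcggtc
STARD4: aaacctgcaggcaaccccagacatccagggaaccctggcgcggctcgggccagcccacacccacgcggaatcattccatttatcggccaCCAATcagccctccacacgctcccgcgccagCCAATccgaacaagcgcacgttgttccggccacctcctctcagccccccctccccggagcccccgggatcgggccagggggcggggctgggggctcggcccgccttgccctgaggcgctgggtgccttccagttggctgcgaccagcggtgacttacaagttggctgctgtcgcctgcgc
MSMO1: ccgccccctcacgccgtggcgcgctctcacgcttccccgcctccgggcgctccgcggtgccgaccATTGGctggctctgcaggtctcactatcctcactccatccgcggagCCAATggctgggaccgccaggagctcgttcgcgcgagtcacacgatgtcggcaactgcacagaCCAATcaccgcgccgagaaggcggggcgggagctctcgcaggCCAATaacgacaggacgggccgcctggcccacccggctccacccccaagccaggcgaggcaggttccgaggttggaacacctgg
SREBF2: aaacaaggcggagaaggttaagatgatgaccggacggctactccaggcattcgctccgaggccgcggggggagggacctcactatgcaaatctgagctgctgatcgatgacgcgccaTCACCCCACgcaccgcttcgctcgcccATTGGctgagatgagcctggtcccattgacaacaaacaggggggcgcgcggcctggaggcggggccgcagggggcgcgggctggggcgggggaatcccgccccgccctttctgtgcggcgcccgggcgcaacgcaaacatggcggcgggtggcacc

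CCAAT stood on either strand in 26 of the 43 windows (60.5%), against 34.6% of all 35116 windows. By gene, 22 of 30 members (73.3%) had it in at least 1 window, against 43.6% of the 10171 genes that were tested in the UVA comparison and had a window. The MSMO1 window held 4 copies, the HMGCS1 and STARD4 windows 2 each, the INSIG1 and SREBF2 windows 1 each, and the IDI1 window printed none. GGGCGG, the letters bound by Sp1, stood in 38 of 43 windows (88.4%), against 45% of all windows, and in 29 of 30 members (96.7%), against 77.4% of the genes tested. TCACNCCAC stood only in the SREBF2 window among the 43, or 2.33%, against 1.13% of all windows. No motif overlapped another of the 2 kinds marked in the windows printed. Among the 19 genes with a window that were lower under UVA, 15 had a CCAAT, as had 7 of the other 11. A match is a description of letters, and the absence of one says nothing of whether a factor binds.

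UVA lowered most of the genes. With UVA alone, 22 of the 34 were called lower and 1 higher, so 67.6% were called, against 12.8% of the 13685 genes tested (5.25% of them lower). With UVA and thio together, 20 were called lower and 0 higher (58.8%), against 9.52% of the 14039 genes tested (4.15% lower). The highest value among the members with UVA and thio was 0.08. The median log2 fold change of the members was −0.22 with UVA and thio and −0.21 with UVA, where the median of all genes tested lay at 0.00 in both. Thio alone called 2 of 33 members tested, both lower (6.06%), against 0.0553% of 10849 genes, where only 6 genes in all were called. By DESeq2, 7 members had an unadjusted p below 0.05, a level at which the share of all genes was not counted. The same 19 members were called lower with UVA and with UVA and thio, 23 in at least 1 of the comparisons and 11 in neither. These comparisons share their untreated libraries, which favours shared calls, and the overlap over all genes was not counted. At an adjusted p below 0.01, 13 of the 23 calls with UVA were left. Most members lay above the median level of the genes tested with UVA (1471), ranging from 262 in PMVK to 28589 in FASN. More abundant genes are called more readily, and no share of genes called in this report was matched for level.

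**Figure D1:**
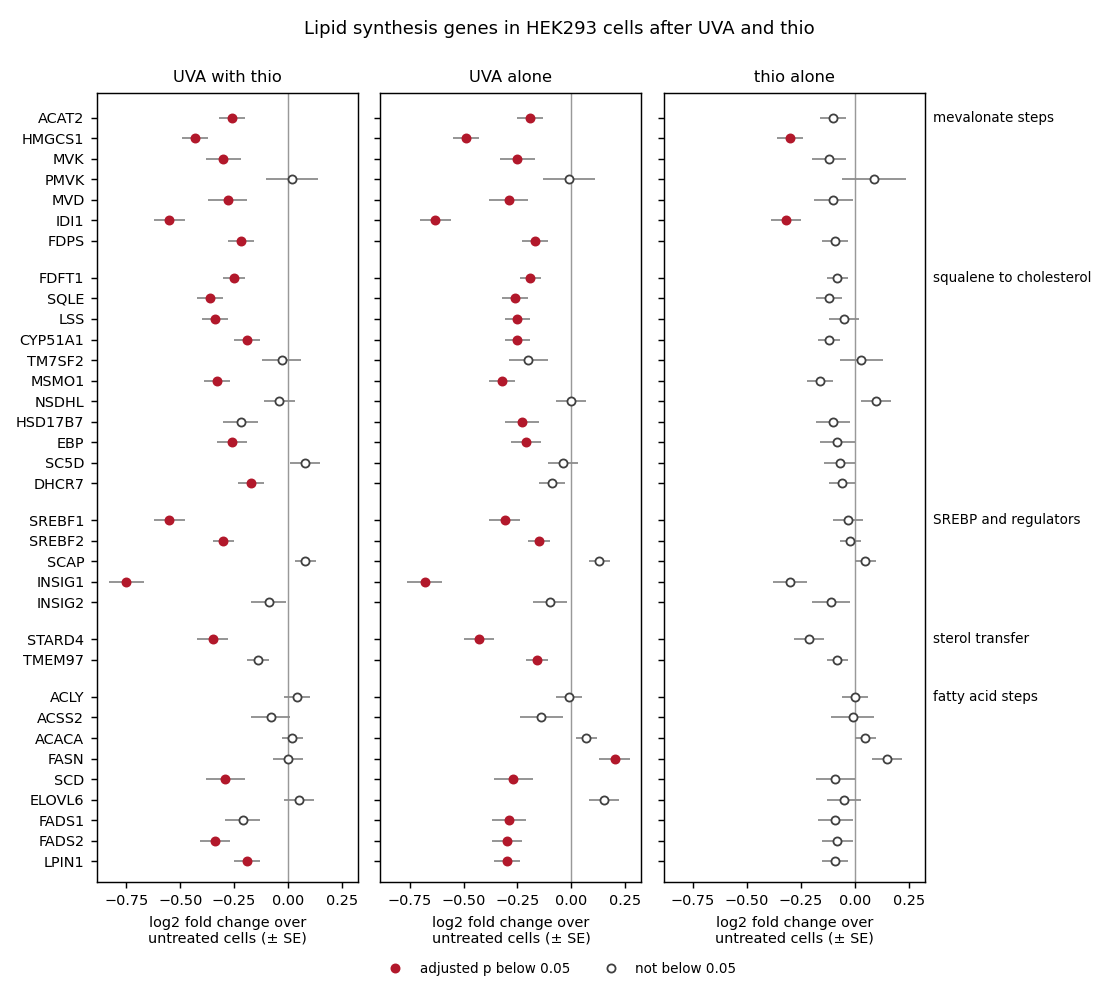
Log2 fold change over untreated HEK293 cells (x axis, point and SE) of 34 genes (y axis, by role) with UVA and thio, UVA alone and thio alone, with 3 libraries per group. Filled points have an adjusted p below 0.05, which holds for 20, 23 and 2 genes, and the enzymes ACLY, ACACA and ELOVL6 lie near or above 0 in the UVA panels.

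Of the 7 mevalonate genes, 6 were called lower with UVA and thio (median −0.28) and 6 with UVA (median −0.25). The steepest was IDI1, the isopentenyl-diphosphate isomerase, at 68.1% of the untreated level with UVA and thio (log2 −0.55 ± 0.07) and 64.8% with UVA (−0.63 ± 0.07), with adjusted p of 3.6e-13 and 2e-16 in the authors' deposited tables (DESeq2). With thio alone it stood at 79.9% of the untreated level (−0.32 ± 0.07), and its mean level in these 15 libraries was 5060 normalised counts. HMGCS1, the HMG-CoA synthase, followed at 74.4% with UVA and thio (−0.43 ± 0.06), 71.1% with UVA (−0.49 ± 0.06) and 81.4% with thio (−0.30 ± 0.06). Both genes called with thio alone were thus from the mevalonate steps, each with an adjusted p of 0.0091 in the authors' deposited table (DESeq2). The remaining called members were ACAT2, which makes acetoacetyl-CoA, the kinase MVK, the decarboxylase MVD and the farnesyl diphosphate synthase FDPS. They lay between −0.30 and −0.22 with UVA and thio and between −0.29 and −0.17 with UVA. PMVK, the phosphomevalonate kinase and the least abundant of the 7 in normalised counts (262), lay at 0.02 ± 0.12 and −0.01 ± 0.12.

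From squalene to cholesterol, 7 of 11 genes were called lower with UVA and thio and 7 with UVA (medians −0.22 and −0.21). SQLE, the squalene epoxidase, fell to 77.9% of the untreated level with UVA and thio (−0.36 ± 0.06) and 83.8% with UVA (−0.26 ± 0.06). LSS, which closes squalene epoxide into lanosterol, was at −0.34 ± 0.06 and −0.25 ± 0.06. MSMO1, the sterol C4-methyl oxidase, was at −0.33 ± 0.06 and −0.32 ± 0.06. FDFT1, the squalene synthase, CYP51A1, the lanosterol demethylase, and the isomerase EBP were called in both comparisons. HSD17B7, a sterol ketoreductase, was called with UVA and not with UVA and thio (−0.22 ± 0.08 with UVA and thio, −0.23 ± 0.08 with UVA), and DHCR7, which reduces 7-dehydrocholesterol, with UVA and thio and not with UVA (−0.17 ± 0.06 and −0.09 ± 0.06). These comparisons share their untreated libraries, and the difference in call was not tested as such. The sterol reductase TM7SF2, the dehydrogenase NSDHL and the desaturase SC5D were called in neither, with values of −0.03 ± 0.09, −0.04 ± 0.07 and 0.08 ± 0.07 under UVA and thio and −0.20 ± 0.09, 0.00 ± 0.07 and −0.04 ± 0.07 under UVA.

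Among the regulators, INSIG1 fell furthest of all 34 genes, to 59.5% of the untreated level with UVA and thio (−0.75 ± 0.08) and 62.2% with UVA (−0.68 ± 0.08). Its adjusted p were 3.4e-19 and 1.3e-15 in the authors' deposited tables (DESeq2). With thio alone it lay at 81.4% (−0.30 ± 0.08), with an adjusted p of 0.081 in the authors' deposited table (DESeq2). SREBF1, which encodes the SREBP of fatty acid genes, was at 68.2% with UVA and thio (−0.55 ± 0.07) and 80.5% with UVA (−0.31 ± 0.07). SREBF2, which encodes the SREBP of sterol genes, was at 81.3% (−0.30 ± 0.05) and 90.4% (−0.15 ± 0.05). Its UVA value stood at the edge of the threshold, with an adjusted p that rounds to 0.05 in the authors' deposited table (DESeq2). The escort SCAP (0.08 ± 0.05 and 0.13 ± 0.05) and INSIG2 (−0.09 ± 0.08 and −0.10 ± 0.08) were not called. STARD4, a cytosolic sterol carrier, fell to 78.3% with UVA and thio (−0.35 ± 0.07) and 74.1% with UVA (−0.43 ± 0.07). TMEM97, a sterol-binding membrane protein, was called with UVA (−0.16 ± 0.05) and had −0.14 ± 0.05 with UVA and thio.

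The 9 fatty acid genes split. The desaturases SCD and FADS2 and the phosphatidate phosphatase LPIN1 were called lower in both comparisons, at −0.29 ± 0.09, −0.34 ± 0.07 and −0.19 ± 0.06 with UVA and thio and −0.27 ± 0.09, −0.30 ± 0.07 and −0.30 ± 0.06 with UVA. FADS1, the delta-5 desaturase, was called with UVA (−0.29 ± 0.08) and stood at −0.21 ± 0.08 with UVA and thio. The genes that make and extend the saturated chain gave other values. FASN, the fatty acid synthase, was called higher with UVA (0.20 ± 0.07, adjusted p 0.045 in the authors' deposited table, DESeq2) and stood at 0.00 ± 0.07 with UVA and thio. ACLY, which makes cytosolic acetyl-CoA from citrate, was at 0.04 ± 0.06 and −0.01 ± 0.06. ACACA, the acetyl-CoA carboxylase, was at 0.02 ± 0.05 and 0.07 ± 0.05, the elongase ELOVL6 at 0.05 ± 0.07 and 0.15 ± 0.07, and the acetyl-CoA synthetase ACSS2 at −0.08 ± 0.09 and −0.14 ± 0.10.

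Neighbouring pathways were read from lists that hold none of the members, and each is read against the same 9.52% and 12.8% of all genes. Of 12 genes of SREBP processing and sterol sensing, 2 were called higher with UVA and thio and 0 lower, and with UVA 1 was called higher and 1 lower. NPC1, which moves cholesterol out of lysosomes, was at 0.30 ± 0.07 with UVA and thio and 0.21 ± 0.07 with UVA. Of 9 efflux genes and LXR targets tested, 1 was called lower in each, the phospholipid remodelling enzyme LPCAT3 with UVA and thio (−0.22 ± 0.06) and the sterol exporter ABCG1 with UVA (−0.46 ± 0.13). In the isoprenoid branch 0 of 10 genes were called with UVA and thio by DESeq2, and with UVA 1 was called higher and 1 lower, PDSS2 and GGPS1. Of 19 other fatty acid and glyceride genes tested, 1 was called higher and 3 lower with UVA and thio, and 2 higher and 1 lower with UVA. Of 17 fatty acid oxidation genes tested, 1 was called higher and 3 lower with UVA and thio, and 2 lower with UVA. The short-chain acyl-CoA dehydrogenase ACADS was at −0.56 ± 0.10 and −0.43 ± 0.10. The list medians lay between −0.09 and 0.05 in both comparisons, where the members' medians were −0.22 and −0.21.

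Whether thio changed the UVA effect was tested with separate libraries, as UVA with thio over thio against UVA over untreated. In cells that had thio, UVA lowered 8 of the 34 genes and raised 0 (23.5%), against 3.68% of the 14039 genes tested (1.37% lower). By DESeq2, 20 members had an unadjusted p below 0.05, a level at which the share of all genes was not counted. The 8 were SREBF1 (−0.53 ± 0.07), INSIG1 (−0.45 ± 0.08), LSS (−0.29 ± 0.06), SREBF2 (−0.28 ± 0.05), FADS2 (−0.27 ± 0.07), SQLE (−0.24 ± 0.06), IDI1 (−0.23 ± 0.07) and FDFT1 (−0.17 ± 0.05). All 8 had also been called lower with UVA in cells without thio, and the matching overlap over all genes was not counted. Of the 34, 26 were negative in both comparisons, against 29.1% of the 13685 genes with both values. Of the 22 genes lower with UVA, 19 had a smaller fall when thio was present. Those 22 were picked for their value with UVA, which favours a larger fall there.

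The test of the difference itself called 2 members, against 0.845% of the 16090 genes tested, and both had the weaker UVA effect with thio present. IDI1 fell by log2 0.23 ± 0.07 with thio present, against a fall of 0.63 ± 0.07 without it. The difference was 0.40 ± 0.10 (95% interval 0.21 to 0.58), with a Benjamini-Hochberg adjusted p of 0.015 from a z test over all genes on values unshrunken from DESeq2. HMGCS1 differed by 0.36 ± 0.09 (0.19 to 0.54, adjusted p 0.017 by the same z test on DESeq2 values). Both are the genes called lower with thio alone, and the thio and untreated libraries enter that comparison and the test. With UVA and thio set directly against UVA alone, IDI1 (0.07 ± 0.07) and HMGCS1 (0.06 ± 0.06) were not called. The smaller UVA step thus started from a lower level with thio, and did not leave a higher level called under UVA. At an adjusted p below 0.01 the test called 0 members. By the z test 9 had an unadjusted p below 0.05, and the share of all genes at that level was not counted. STARD4 (0.29 ± 0.10) and INSIG1 (0.23 ± 0.11) gave positive differences that were not called. SREBF1 (−0.21 ± 0.10) and FASN (−0.35 ± 0.10) gave negative ones that were not called. For FASN the interval was −0.54 to −0.15 and the adjusted p was 0.054 by that z test on DESeq2 values. With only genes of a mean level of at least 100, the test called 3 members. By order of p the third was FASN, whose difference has the opposite sign to those of IDI1 and HMGCS1.

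**Figure D2:**
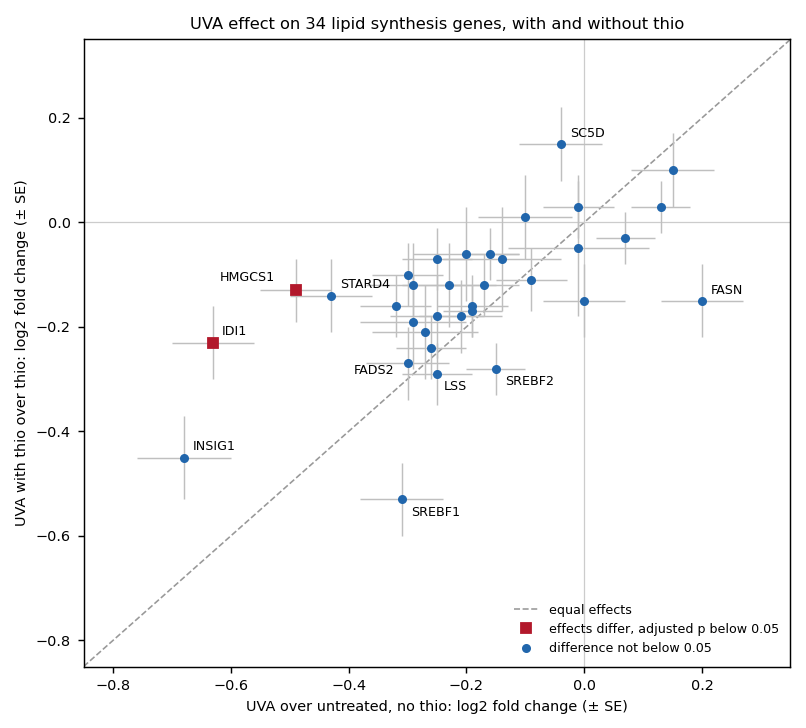
Log2 fold change of UVA with thio over thio (y axis, with SE) against that of UVA over untreated (x axis, with SE) for the 34 genes, from 4 separate groups of 3 libraries, with the line of equal effects. IDI1 and HMGCS1 (squares) lie above the line, with differences of 0.40 and 0.36, and SREBF1 lies below it at −0.53 on the y axis.

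Set directly against UVA alone, the addition of thio called 1 of the 34 genes (2.94%), against 3.03% of the 13685 genes tested, a share close to the background. That gene was SREBF1, at −0.24 ± 0.07 with an adjusted p of 0.033 in the authors' deposited table (DESeq2), and 0 were called below 0.01. SREBF2 (−0.15 ± 0.05) and FASN (−0.19 ± 0.07) had adjusted p of 0.079 and 0.094 in the authors' deposited table (DESeq2). The other members ranged up to 0.17 ± 0.09 in TM7SF2, and their median was −0.04.

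Aza was set against the same untreated HEK293 cells. Of the 34 genes, 8 were called lower and 3 higher (32.4%), against 14.3% of the 16523 genes tested, with a median of −0.08 over the members. The largest falls were in FASN (−0.43 ± 0.07), INSIG1 (−0.41 ± 0.08), HMGCS1 (−0.37 ± 0.06) and DHCR7 (−0.32 ± 0.06). ACACA (−0.27 ± 0.05), FDPS (−0.22 ± 0.06), ACLY (−0.22 ± 0.06) and SCAP (−0.20 ± 0.05) followed. TM7SF2 rose by log2 0.57 ± 0.09, ACSS2 by 0.36 ± 0.09 and SC5D by 0.24 ± 0.07. IDI1, one of the steepest falls with UVA, stood at −0.06 ± 0.07 with Aza, and SQLE at −0.12 ± 0.06. INSIG1, HMGCS1 and FDPS were called lower with UVA and with Aza. UVA and Aza share their untreated libraries, so these values are given side by side and the difference was not tested.

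The same Aza dose in 3 further HEK293 lines, each with its own untreated libraries, gave 10 members lower and 3 higher in MeBP TET_WT, 11 lower and 4 higher in G16 and 8 lower and 3 higher in G37. The shares called were 38.2%, 44.1% and 32.4%, against 22.7%, 23.6% and 24.7% of all genes tested. Of the 34 genes, 7 were called lower in all 4 HEK293 experiments, against 4.02% of the 16248 genes tested in each. These were HMGCS1, FDPS, DHCR7, SCAP, ACLY, ACACA and FASN. HMGCS1 was at −0.40 ± 0.07 in MeBP TET_WT, −0.33 ± 0.07 in G16 and −0.41 ± 0.07 in G37. FASN was at −0.27 ± 0.05, −0.42 ± 0.05 and −0.31 ± 0.05, and ACACA at −0.31 ± 0.04, −0.33 ± 0.04 and −0.30 ± 0.04. TM7SF2 and SC5D, 2 of the 34, were called higher in all 4, against 4.3% of genes. That count is near the share of all genes and is not read as a result about the members. TM7SF2 was at 0.45 ± 0.07, 0.49 ± 0.07 and 0.48 ± 0.07 in those 3 lines. INSIG1 was called in MeBP TET_WT (−0.34 ± 0.12) and G16 (−0.35 ± 0.12), and had −0.17 ± 0.12 in G37. ACSS2 was called in MeBP TET_WT (0.30 ± 0.06), and had 0.11 ± 0.06 in G16 and 0.08 ± 0.06 in G37.

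In U2OS, at the lower Aza dose of 55 nM, 12 members were called lower and 8 higher (58.8%), against 23.7% of the 17478 genes tested, and 13 were left at an adjusted p below 0.01. Higher were HMGCS1 (0.17 ± 0.03), IDI1 (0.20 ± 0.05), SQLE (0.19 ± 0.03), CYP51A1 (0.13 ± 0.03), MSMO1 (0.21 ± 0.04), SC5D (0.12 ± 0.04), TMEM97 (0.15 ± 0.04) and ACSS2 (0.14 ± 0.05). The fatty acid genes were mostly lower, 6 of 9, led by FASN at −0.45 ± 0.09 and ACACA at −0.23 ± 0.03. Of the mevalonate genes, 2 were higher and 1 lower, PMVK at −0.31 ± 0.10. From squalene to cholesterol, 4 were higher and 2 lower, LSS at −0.19 ± 0.04 and DHCR7 at −0.14 ± 0.04. Of the 5 regulators, 3 were lower and 0 higher, SREBF1 (−0.10 ± 0.03), SREBF2 (−0.12 ± 0.03) and SCAP (−0.13 ± 0.03). DHCR7, SCAP, ACLY, ACACA and FASN were lower and SC5D higher in U2OS and in all 4 HEK293 experiments. Of the 15988 genes tested in all 5, 1.21% were lower and 1.34% higher throughout. Among the members these were 5 of 34 and 1 of 34, and 1 gene is too few to read against that share. The Aza effects of U2OS and HEK293 differed in 9 members, 8 of them higher in U2OS and 1 lower, against 12.3% of the 16451 genes tested by z. HMGCS1 differed by 0.54 ± 0.07 (95% interval 0.40 to 0.68), INSIG1 by 0.49 ± 0.09 (0.32 to 0.66) and SQLE by 0.31 ± 0.07 (0.17 to 0.44). TM7SF2 differed by −0.80 ± 0.14 (−1.07 to −0.53), being −0.23 ± 0.11 in U2OS and 0.57 ± 0.09 in HEK293. Dose and cell line changed together in this comparison and cannot be told apart.

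Induction of TET-CD in HEK293 left nearly all of these genes within a narrow range of the untreated level. Of the 34, 1 was called higher and 0 lower (2.94%), against 0.883% of the 14942 genes tested, and 4 had an unadjusted p below 0.05 by DESeq2. The gene was FADS1, at 0.17 ± 0.04 with an adjusted p of 0.00047 in the authors' deposited table (DESeq2). All 34 values lay between −0.10 and 0.17, and INSIG1 (−0.02 ± 0.03) and HMGCS1 (−0.03 ± 0.03) had small errors. TETmut-CD called 0 members by DESeq2, against 0.0276% of the 18095 genes tested, with 2 members at an unadjusted p below 0.05 (FASN and LPIN1). FADS1 was at −0.06 ± 0.04 there. The share of all genes at an unadjusted p below 0.05 was counted for neither construct. The TET-CD and TETmut-CD effects differed in FADS1 alone among the members, by 0.23 ± 0.05 (95% interval 0.13 to 0.33), with a Benjamini-Hochberg adjusted p of 0.0043 by the z test on DESeq2 values, against 0.176% of the 12522 genes tested. FADS1 was not called with doxycycline in MeBP TET_WT, G16, G37 or U2OS. Its adjusted p in those lines were 0.52, 0.88, 0.92 and 0.24 in the authors' deposited tables (DESeq2).

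The Aza effect differed from the TET-CD effect in 7 members, 6 lower and 1 higher with Aza, against 5.5% of the 13491 genes tested by z. Aza and doxycycline each had their own untreated libraries here. The 6 were HMGCS1 (−0.34 ± 0.07), INSIG1 (−0.39 ± 0.08), FASN (−0.37 ± 0.08), ACACA (−0.22 ± 0.05), DHCR7 (−0.22 ± 0.07) and SCAP (−0.20 ± 0.06), and the higher one was TM7SF2 (0.59 ± 0.11).

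With doxycycline, MeBP TET_WT called 1 member higher, ACSS2 (0.22 ± 0.06), against 1.3% of genes, with an adjusted p of 0.026 in the authors' deposited table (DESeq2), and 0 below 0.01. G16 and G37 called 0 by DESeq2, against 0.364% and 0.263% of genes. They had 5 and 4 members at an unadjusted p below 0.05 by DESeq2, a level at which the share of all genes was not counted. In G16 the largest was FASN, at −0.20 ± 0.05 with an adjusted p of 0.063 in the authors' deposited table (DESeq2). The standard errors could not be recovered for G37, so no sizes are given for it. In U2OS, TET-CD called 4 members higher and 4 lower (23.5%), against 12.2% of the 16038 genes tested, and 4 were left at an adjusted p below 0.01. TMEM97 (0.18 ± 0.04), MSMO1 (0.14 ± 0.04), SQLE (0.11 ± 0.03) and CYP51A1 (0.09 ± 0.03) were higher. FASN (−0.24 ± 0.09), ACACA (−0.12 ± 0.03), LSS (−0.12 ± 0.04) and SREBF1 (−0.11 ± 0.03) were lower. The U2OS comparisons of Aza and TET-CD share their untreated libraries. With Aza the same 8 genes had 0.15 ± 0.04, 0.21 ± 0.04, 0.19 ± 0.03 and 0.13 ± 0.03, and −0.45 ± 0.09, −0.23 ± 0.03, −0.19 ± 0.04 and −0.10 ± 0.03, in the same order.

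**Figure D3:**
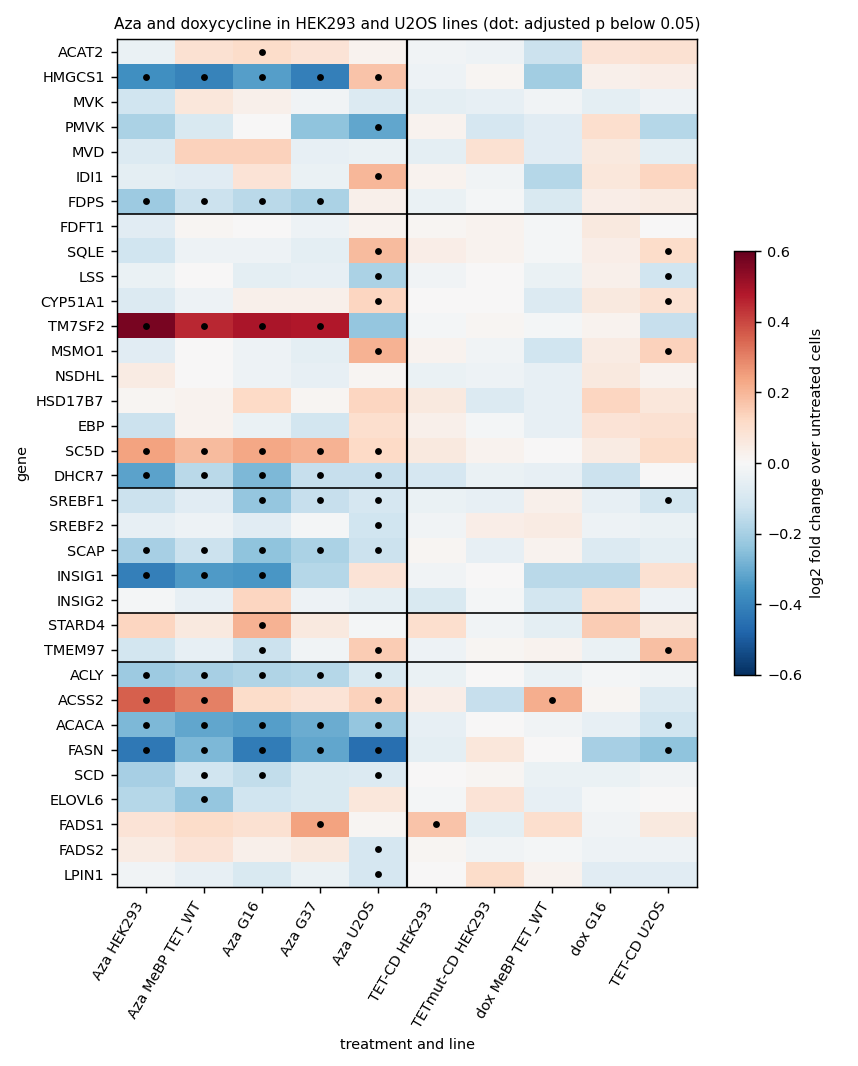
Log2 fold change over untreated cells (colour) of 34 genes (rows, by role) with Aza in 5 cell lines (left) and doxycycline in 5 (right), with 3 libraries per group and a dot where the adjusted p was below 0.05. With Aza, ACLY, ACACA and FASN are lower in all 5, while HMGCS1 is lower in the HEK293 lines and higher in U2OS (0.17).

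**Figure D4:**
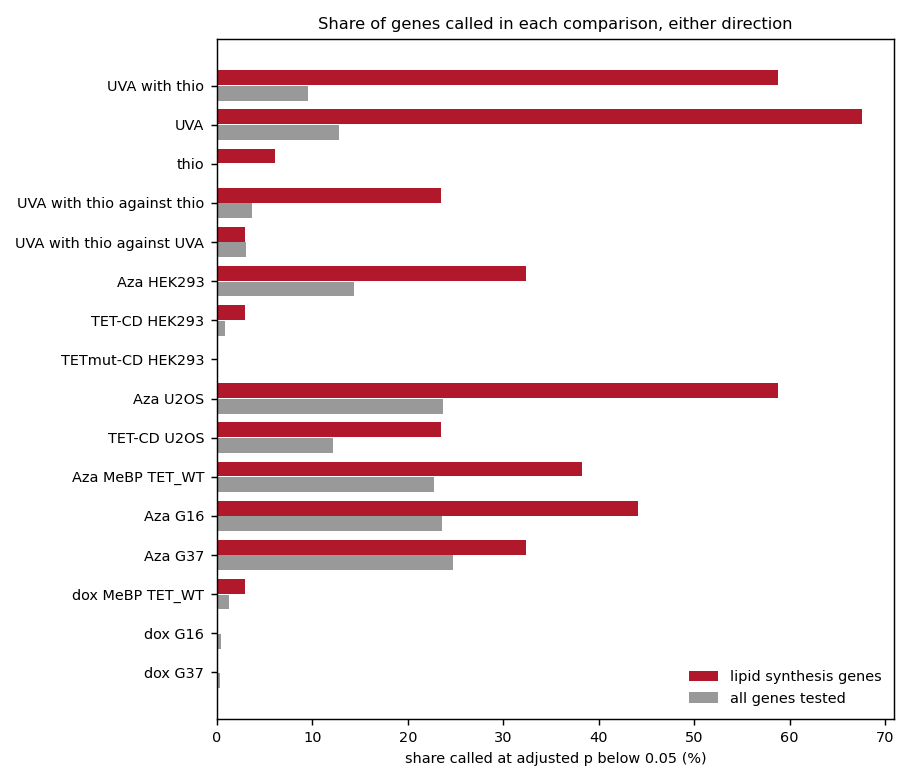
Share of genes called at an adjusted p below 0.05 (x axis, %) among the members tested (upper bar) and all genes tested (lower bar) in each of 16 sense total RNA comparisons. The widest gap is with UVA, 67.6% against 12.8%, and the shares nearly meet for UVA with thio against UVA, 2.94% against 3.03%.

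Nascent RNA was tabulated for 5 of the members, FASN, HSD17B7, INSIG2, MSMO1 and SC5D, with Aza and with TET-CD in HEK293, and both treatments share their untreated libraries. Initiation by PRO-cap was called higher at FASN in both, against 4.43% of the 5846 sites tested with Aza and 3.87% with TET-CD. The site that the authors' deposited table assigns to FASN lay at chr17:80056000-80056120 on the minus strand of hg19, with a mean of 2688 normalised counts. In the authors' deposited table its log2 fold change was 0.40 ± 0.10 with Aza (adjusted p 0.0061, DESeq2) and 0.39 ± 0.10 with TET-CD (adjusted p 0.009). Elongation by PRO-seq called 0 of the 6 member regions in either, by DESeq2, against 15.1% of the 3888 regions tested with Aza and 5.84% with TET-CD, and 0 had an unadjusted p below 0.05. Over the region assigned to FASN, at chr17:80042879-80055949, the authors' deposited table gave −0.09 ± 0.07 with Aza and 0.11 ± 0.07 with TET-CD. FASN total RNA was −0.43 ± 0.07 with Aza and −0.06 ± 0.03 with TET-CD, so initiation at the tabulated site and total RNA had opposite signs with Aza. The other 4 genes had initiation values between −0.47 and 0.49 with standard errors of 0.16 to 0.39, from sites with 24 to 273 normalised counts.

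Neighbouring lists under Aza in HEK293 are read against the same 14.3% of genes. Of 12 genes of SREBP processing and sterol sensing, 1 was called lower and 0 higher, ERLIN1 (−0.20 ± 0.06). Of 10 efflux genes and LXR targets, 1 was higher and 1 lower, the sterol exporter ABCA1 at 1.06 ± 0.30 and LPCAT3 at −0.31 ± 0.06. ABCA1 had a mean level of only 27 normalised counts, where the median gene tested had 979. Of 10 isoprenoid branch genes, 2 were lower. Of 19 other fatty acid and glyceride genes tested, 3 were higher and 4 lower, among them the citrate carrier SLC25A1 at −0.52 ± 0.08 and MID1IP1, which activates acetyl-CoA carboxylase, at −0.43 ± 0.11. Of 17 oxidation genes tested, 3 were higher and 3 lower. CPT1A, which admits fatty acids to mitochondria, was at 0.40 ± 0.11 with Aza and 0.40 ± 0.08 with TET-CD, where it was the only gene of the 5 lists called.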

How the data were processed

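Total RNA had been depleted of ribosomal RNA and built into libraries with a stranded kit, per the labels' protocols. The submitters' processing notes name Trim Galore 0.4.3, STAR 2.4.2, bedtools 2.20.1, deepTools 3.0.2, R 3.5.1 and DESeq2 1.22.1 on hg19, with galGal5 beside it, and give them no roles here. The authors deposited 16 sense total RNA tables and 2 nascent RNA tables that were used. Per the file headers, the signal column deposited by the authors is a mean normalised count over an experiment's libraries. Fold changes and their standard errors were deposited by the authors as log2 values, shrunken toward 0 in the total RNA tables as the values show. Each table also holds the p-value of every gene as deposited by the authors, raw and adjusted, the second blank for filtered genes. No value per sample was in the tables, so no model was refitted and depth per sample is unknown.

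To undo the shrinkage, a Cauchy prior was assumed and its width was fitted per table so that values and p-values matched (Python 3.11.15, numpy 2.4.6, scipy 1.17.1, pandas 2.3.3, matplotlib 3.10.9). As a check, the unshrunken effect of UVA with thio minus that of UVA was set beside the direct comparison of these groups, unshrunken in the same way from its own table, over 12263 genes whose mean level reached 100, with r = 0.9998 and gaps of at most 0.0075 in the members. For unshrunken thio, against the unshrunken difference of UVA with thio and UVA with thio against thio, r was 0.9620 over 12240 genes, and the gap at most 0.015 in the members. Differences between effects from separate libraries were tested by z, with Benjamini-Hochberg adjustment over all genes with both values. Of the genes with a p-value, the unshrunken effect was recovered for 16090 of 18293 with UVA with thio against thio. It was recovered for 13491 of 18095 with TET-CD and 12528 of 18095 with TETmut-CD in HEK293, and 16608 of 18560 with Aza in U2OS. All 34 members were recovered, and the adjusted p and shares of these tests rest on the reduced sets. The code was tested on simulated data. Of 18850 rows, 70 repeated a symbol, and of these the most abundant row was used.

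The members, the gene lists and the tests were chosen with earlier results of these data known. All 34 members may be named, and up to 3 called genes per neighbouring list. The alternatives were a threshold of 0.01, adjustment over every gene with a p-value, centring on the median gene, the fold changes as deposited and a minimum mean level of 100. The promoter windows are from RefSeq.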

Additional observations from a re-analysis of the deposited data

Results flagged for a closer look

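The UVA effect differed with and without thio, by a test of the difference itself, in IDI1 (0.40) and HMGCS1 (0.36), as log2 values of the effect with thio present minus that without. Both were lower with thio alone (−0.32 and −0.30), and UVA with thio against UVA alone gave 0.07 and 0.06, not called. The Aza effect differed between cell lines, by the same kind of test, in 9 genes, as log2 values of U2OS minus HEK293. These were HMGCS1 (0.54), INSIG1 (0.49), SQLE (0.31), MSMO1 (0.27), IDI1 (0.26), TMEM97 (0.26), FDPS (0.25), CYP51A1 (0.21) and TM7SF2 (−0.80). The Aza dose was 55 nM in U2OS and 880 nM in HEK293.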

How the results depend on the processing

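At an adjusted p below 0.01 in place of 0.05, the members called numbered 13 with UVA (23 at 0.05), 0 with UVA and thio against UVA (1), 13 with Aza in U2OS (20), 4 with TET-CD in U2OS (8), 0 with doxycycline in MeBP TET_WT (1) and 0 in the test of thio on the UVA effect (2). The other 18 of the 24 counts stayed within 1.5 times at that threshold. Among these, TETmut-CD, doxycycline in G16 and G37, and PRO-seq with Aza and with TET-CD were 0 at 0.05 and could only stay 0. Adjustment over every gene with a p-value kept 16 of 16 counts within 1.5 times, centring on the median of all genes 19 of 19, the fold changes as deposited 4 of 4, and a mean level of at least 100 also 4 of 4. The median of all genes lay between −0.01 and 0.01, so centring shifted the values little, and counts of 0 again stayed 0. With that minimum level the test of thio on the UVA effect called 3 members (2 without it). No paired analysis was possible because the tables used here hold no value per library. For the same reason leaving out each replicate in turn, another normalization of the counts and a filter on low counts were not run. The untreated libraries shared by UVA, thio and Aza enter every one of those comparisons, and the precision of single values is limited by 3 libraries per group.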
